A study of Mus musculus with 6 samples.

Results

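The unfolded protein response and the quality control of the endoplasmic reticulum (ER) were described through 37 genes in groin (inguinal) white fat of mice whose adipocytes lack Igf1r, the gene of the insulin-like growth factor 1 receptor. The genes were chosen by symbol for their known place in this response, and no value of theirs entered the rule. Earlier results of these data were known when they were chosen. All 37 were among the 14861 genes of the deposited table, and they were sorted by the branch of the response they are best known for, which gave 9 genes for PERK-ATF4, 13 for IRE1-XBP1 and 15 for ATF6. Several of them answer to more than 1 branch. The knockout group, AdIGF1RKO, came from a cross of mice with a floxed Igf1r gene (B6;129-Igf1rtm2Arge/J) with the Adipoq-Cre line (B6; FVB-Tg (Adipoq-Cre)1Evdr/J), in which the adiponectin promoter drives Cre. Igf1r-floxed littermates, called Flox, were the controls, and each group had 3 mice. Both groups were on a low-fat chow (10% of energy as fat) over 24 weeks, and the fat was frozen after an overnight fast. Sex and age are not in the labels, the control labels do not speak of Cre, and Cre under this promoter targets adipocytes, so the other cells of the pad are not targeted.

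The ER folds secreted and membrane proteins, and white adipocytes, which secrete large amounts of adiponectin and other hormones, depend on it. When unfolded proteins build up, the chaperone BiP leaves 3 sensors in the ER membrane. PERK (Eif2ak3) phosphorylates the initiation factor eIF2, which slows protein synthesis and favours translation of the factor ATF4. IRE1 (Ern1) cuts the Xbp1 transcript so that it encodes an active factor. ATF6 moves to the Golgi, where proteases free its factor domain. The 3 factors raise chaperones, disulfide isomerases and the machinery of ER-associated degradation (ERAD), which takes misfolded proteins back to the cytosol. Much of the signalling is by phosphorylation, cleavage and splicing, which a table of 1 value per gene does not hold: spliced and unspliced Xbp1 cannot be told apart here.

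Levels are given as scaled CPM, the whole reads behind each deposited value, rescaled by median ratio and expressed per 1000000 reads of a library of geometric mean size. The libraries held 60617147 to 70695527 reads, and 1 read was worth 0.0130 to 0.0207 scaled CPM. Igf1r, the targeted gene, had 6.11, 5.27 and 4.85 scaled CPM in AdIGF1RKO 1 to 3, against 6.44, 6.47 and 5.86 in Flox 1 to 3. AdIGF1RKO 1 lay above Flox 3, and the log2 difference of -0.18 did not pass (adjusted p = 0.998, limma), so the whole-tissue value of this gene does not separate the labels. Adipocyte markers were high in every library, with Adipoq at 3348 to 4214 scaled CPM in AdIGF1RKO and 3799 to 4927 in Flox. Skeletal muscle RNA differed most: the 18 muscle markers in the table (Myh7 is not among its genes) took 0.0540%, 0.267% and 4.42% of the reads in AdIGF1RKO 1 to 3, against 0.865%, 0.105% and 12.2% in Flox 1 to 3. In such bulk tissue, fewer cells of a type and less RNA per cell cannot be told apart.

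None of the 37 genes differed between the genotypes past the test. All 37 had a mean of at least 1 scaled CPM and were tested with limma, two-sided, on log2(scaled CPM + 1), with Benjamini-Hochberg adjustment over 12993 genes. At an adjusted p under 0.05, limma called 0 of the 37 and 0% of all genes, edgeR called 0 of each, and DESeq2 called 0 of the 37 and 0.177% of all genes. At an unadjusted p under 0.05, limma counted 1 of the 37, Trib3, against 2.96% of all genes. In that direction, higher in AdIGF1RKO, the share of all genes was 1.83%. The same count was 1 with edgeR, and 2 with DESeq2 and with the replicate number as a block, Edem1 being the other one. The 3 AdIGF1RKO values lay above the 3 Flox values for 2 genes, Trib3 and Edem1, against 4.41% of all genes. They lay below them for 0 genes, against 3.86% of all genes. In either direction the groups did not overlap for 2 of the 37, against 8.27% of all genes.

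The differences were also small. Of the 37 log2 differences, 26 were positive and 24 lay within 0.1 of zero, which is 64.9%, against 47.9% of all tested genes. The median was 0.03, against -0.02 over all tested genes. For 32 of the 37, or 86.5%, the 95% interval of the difference lay within 1.5-fold in either direction, against 67.2% of all genes, and for 35 it lay within 2-fold. Narrow intervals were not particular to the 37. In the 150 tested genes of the other pathway lists below, 82.7% lay within 1.5-fold, and 56.7% differed by less than 0.1. Of the 37, the 5 whose interval passed the 1.5-fold bound were Trib3, Chac1, Ppp1r15a, Derl3 and Sdf2l1. Those of Chac1 and Derl3 also passed the 2-fold bound. The interval of Trib3 was not a wide one: its standard error was 0.12, as was the median of the 37, and it ran from 0.14 to 0.72. All these intervals and bounds are on log2(scaled CPM + 1), where the added 1 shrinks the differences of low genes such as Trib3 and Derl3. The plot of the differences with their intervals shows the 3 branches around the median of all genes. By branch, 5 of 9 PERK-ATF4 genes were positive (median 0.08), 11 of 13 IRE1-XBP1 genes (median 0.03) and 10 of 15 ATF6 genes (median 0.07).

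**Figure D1:**
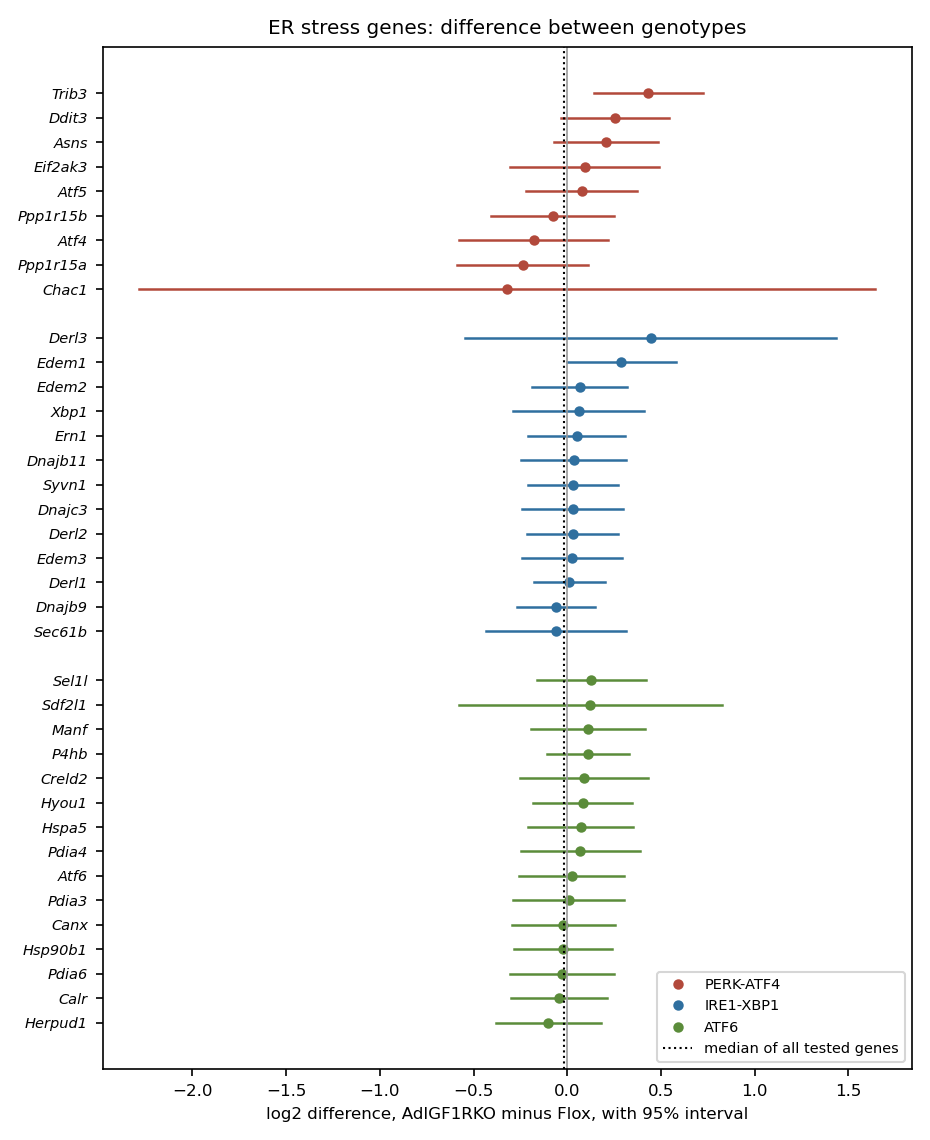
Log2 difference (x axis, AdIGF1RKO minus Flox, n = 3 each) of the 37 genes, sorted within each branch, with lines for the 95% interval from limma and a dotted line at the median of all tested genes (-0.02). Trib3, at 0.43, is the single gene whose interval lies wholly on 1 side of 0, and Chac1 has the widest interval.

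Per length, chaperones, a disulfide isomerase and a translocon subunit stood highest, and the sensors were among the 5 lowest. With levels divided by the summed exon length of each gene in the GENCODE M21 annotation, Calr had 209 scaled CPM per kilobase over the 6 libraries, Sec61b 152, Hspa5 116, P4hb 104 and Hsp90b1 102. The 5 lowest were Eif2ak3 with 2.48, Trib3 with 2.37, Atf6 with 1.84, Ern1 with 1.05 and Derl3 with 0.584 scaled CPM per kilobase. All 5 of the highest act inside the ER or at its membrane. The counting annotation is not given in the sources used here, so these lengths may not be those of the transcripts counted.

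In the PERK-ATF4 branch, Trib3, CHOP and asparagine synthetase had the higher means in AdIGF1RKO, while Atf4 itself, Chac1 and the phosphatase subunits had the lower means. Eif2ak3, which encodes the kinase PERK, had 16.2, 16.2 and 13.7 scaled CPM in AdIGF1RKO 1 to 3, against 16.6, 15.7 and 11.2 in Flox 1 to 3. Replicate 3 of each group was its lowest, the groups overlapped, and the log2 difference was 0.09 with an interval of -0.31 to 0.49. Atf4, the factor whose translation PERK favours, had 114, 125 and 140 scaled CPM in AdIGF1RKO, against 122, 133 and 180 in Flox. Each group was highest in its replicate 3, Flox 3 most of all, and the log2 difference was -0.18 with an interval of -0.58 to 0.22. Atf5, a related factor also raised through eIF2, had 133 to 176 scaled CPM in AdIGF1RKO and 135 to 149 in Flox.

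Ddit3 encodes CHOP, the factor that ties long ER stress to cell death. It had 62.9, 69.0 and 59.4 scaled CPM in AdIGF1RKO, against 61.3, 50.9 and 48.2 in Flox. Flox 1 lay above AdIGF1RKO 3, and the log2 difference was 0.25 with an interval of -0.03 to 0.54 and an unadjusted p = 0.0741 (limma). Trib3 encodes a pseudokinase that ATF4 and CHOP raise and that binds the insulin-signalling kinase Akt. It had 6.24, 5.98 and 5.59 scaled CPM in AdIGF1RKO, against 3.998, 4.604 and 3.83 in Flox. The groups did not overlap: the lowest AdIGF1RKO library lay above the highest Flox library. The means were 5.94 ± 0.324 in AdIGF1RKO and 4.15 ± 0.406 in Flox (SD, n = 3 each), a ratio of 1.43 that rests on 355 to 481 reads in AdIGF1RKO and 185 to 323 in Flox. The difference on log2(scaled CPM + 1) was 0.43, standard error 0.12, interval 0.14 to 0.72, which did not pass over all genes (unadjusted p = 0.0101, adjusted p = 0.998, limma). The added 1 makes this smaller than the log2 of the ratio. Relative to the median of all genes, the log2 difference was 0.45 in limma and 0.54 in both edgeR and DESeq2. Leaving out any 1 library kept the log2 difference between 0.39 and 0.50, with unadjusted p between 0.0129 and 0.0358, and without both muscle-rich libraries it was 0.43.

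**Figure D2:**
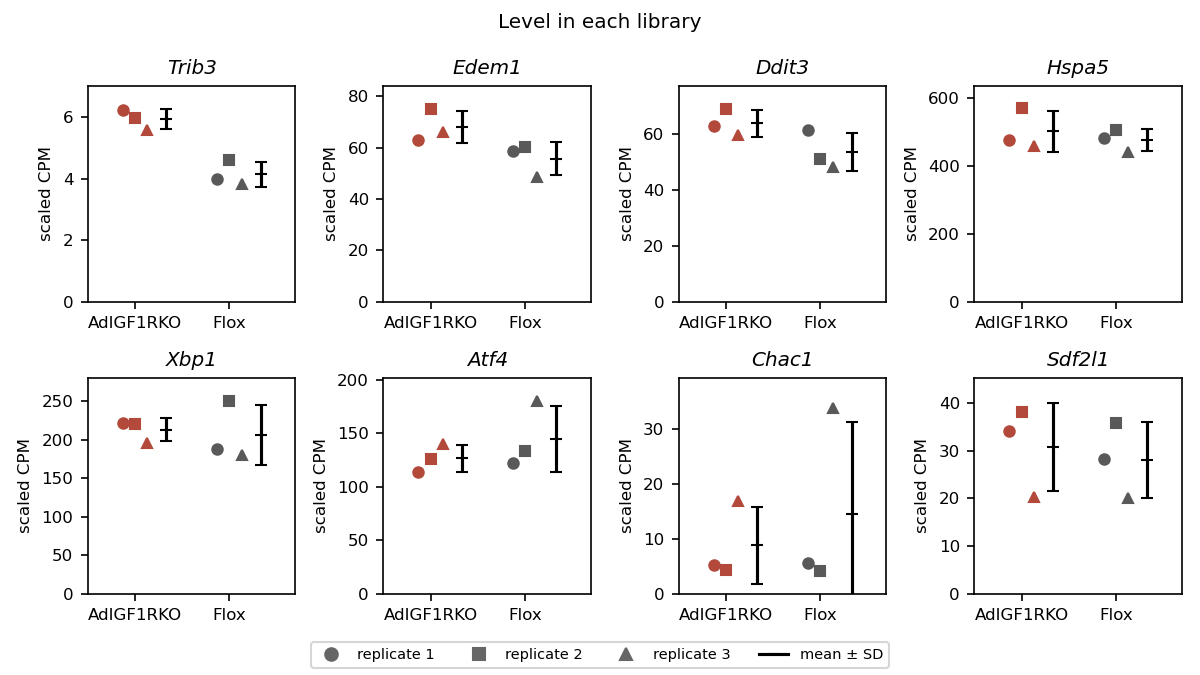
Scaled CPM (y axis, from 0) of 8 genes in each library, AdIGF1RKO in red and Flox in grey, with the symbol giving the replicate number and the bar the mean ± SD (n = 3 each; the Flox bar of Chac1 is drawn down to 0 only). The groups are apart in Trib3 and Edem1 and overlap in the other 6, and in Chac1 replicate 3 of each group is far above the others.

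Asns, the asparagine synthetase that ATF4 raises, had 63.0, 59.3 and 61.0 scaled CPM in AdIGF1RKO, against 49.5, 61.5 and 48.3 in Flox. Flox 2 lay within the AdIGF1RKO values, and the log2 difference was 0.21 (unadjusted p = 0.118, limma). Chac1 encodes an enzyme that breaks down glutathione and is a late target of ATF4 and CHOP. It had 5.26, 4.37 and 16.9 scaled CPM in AdIGF1RKO, against 5.62, 4.06 and 34.0 in Flox. Replicate 3 was the high one in both groups, its range over the 6 libraries was 8.36-fold, and its log2 difference of -0.32 had an interval of -2.28 to 1.64. Relative to the median of all genes, the log2 difference was -0.30 in limma and -0.69 in both edgeR and DESeq2, and without Flox 3 it was 0.54 in limma. Ppp1r15a and Ppp1r15b encode GADD34 and CReP, which bring phosphatase 1 to eIF2 and so end or limit the PERK signal. Ppp1r15a had 15.5, 11.2 and 12.1 scaled CPM in AdIGF1RKO, against 13.8, 16.0 and 16.3 in Flox. Its log2 difference was -0.24 (unadjusted p = 0.149, limma), and AdIGF1RKO 1 was the library that overlapped Flox. Ppp1r15b had 38.3 to 49.0 scaled CPM in AdIGF1RKO and 40.8 to 52.5 in Flox.

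In the IRE1-XBP1 branch, 12 of 13 genes overlapped between the groups and 11 had a log2 difference within 0.1 of zero. Of all tested genes, 8.27% did not overlap and 47.9% lay within 0.1 of zero, so the overlap count is near that of all genes. Ern1, the sensor IRE1, had 8.71, 9.05 and 8.34 scaled CPM in AdIGF1RKO, against 9.15, 8.21 and 7.79 in Flox. Its values were mixed between the groups, with a log2 difference of 0.05 and an interval of -0.21 to 0.31. Xbp1, whose transcript IRE1 cuts, had 222, 221 and 196 scaled CPM in AdIGF1RKO, against 188, 251 and 180 in Flox. Flox 2 was the highest library and Flox 3 the lowest, so the Flox values enclosed all 3 AdIGF1RKO values, and the interval of the difference was -0.29 to 0.41 on the log2 scale.

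Edem1 belongs to a family of ER proteins that trim mannose from misfolded glycoproteins and hand them to ERAD, and it is a known XBP1 target. It had 63.0, 75.1 and 66.3 scaled CPM in AdIGF1RKO, against 58.6, 60.1 and 48.4 in Flox. The groups did not overlap, though AdIGF1RKO 1 lay close to Flox 2, and the means were 68.1 ± 6.27 in AdIGF1RKO and 55.7 ± 6.37 in Flox (SD, n = 3 each). On the log2 scale this was 0.29, standard error 0.12 (unadjusted p = 0.0515, adjusted p = 0.998, limma). The unadjusted p was 0.0416 with the replicate number as a block and 0.146 without both muscle-rich libraries. Relative to the median of all genes, the log2 difference was 0.31 with all libraries and 0.19 without Flox 3. The other family members did not share this separation: Edem2 had 35.6 to 38.0 scaled CPM in AdIGF1RKO and 31.3 to 38.6 in Flox, and Edem3 had 18.8 to 22.7 in AdIGF1RKO and 18.6 to 21.5 in Flox.

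The derlins, membrane proteins through which ERAD substrates leave the ER, differed in how steady they were. Derl1 was the steadiest of the 37 genes within groups, with 130, 136 and 124 scaled CPM in AdIGF1RKO, against 127, 131 and 129 in Flox. Its interval of -0.18 to 0.20 on the log2 scale was the narrowest of the branch. Derl2 had 65.2 to 75.8 scaled CPM in AdIGF1RKO and 64.1 to 73.3 in Flox. Derl3, known best from secretory cells, had 1.52, 0.325 and 2.87 scaled CPM in AdIGF1RKO, against 0.579, 1.25 and 0.435 in Flox, which is 23 to 182 reads in AdIGF1RKO and 21 to 88 in Flox. Its high and low libraries were mixed between the groups, and the log2 difference of 0.45 had an interval of -0.54 to 1.44. The added 1 understates differences of so low a gene: the ratio of the means was 2.08. Relative to the median of all genes, the log2 difference was 0.46 in limma and 1.07 in both edgeR and DESeq2, and it was 0.88 in limma without AdIGF1RKO 2. Syvn1, the ubiquitin ligase HRD1 at the centre of ERAD, had 23.9 to 27.0 scaled CPM in AdIGF1RKO and 23.2 to 26.9 in Flox. Dnajb9, Dnajb11 and Dnajc3 encode J proteins that work with BiP, and their log2 differences were -0.06, 0.03 and 0.03. Sec61b, a subunit of the translocation channel, had 150 scaled CPM in AdIGF1RKO 1 and 179 to 218 in the other 5 libraries.

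In the ATF6 branch all 15 genes overlapped between the groups, where only 8.27% of all tested genes did not. The log2 differences of the branch ran from -0.10 for Herpud1 to 0.13 for Sel1l. Atf6 itself had 15.5, 19.4 and 16.4 scaled CPM in AdIGF1RKO, against 17.4, 15.7 and 17.2 in Flox. AdIGF1RKO held both the highest and the lowest library, with a log2 difference of 0.02 and an interval of -0.26 to 0.30. Hspa5, which encodes BiP and is the most used marker of the response, had 476, 571 and 460 scaled CPM in AdIGF1RKO, against 484, 506 and 441 in Flox. AdIGF1RKO 2 was the highest library, the other two lay within the Flox range, and the log2 difference was 0.07 with an interval of -0.21 to 0.35. The counting behind Hspa5 is deep, at 29181 to 40405 reads in AdIGF1RKO and 21288 to 35489 in Flox, so the spread between mice and not the depth limits this interval.

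The ER stress response element is the best-known promoter element of this response, and the sequences are shown to let a reader see it in the 9 members where it was found, Hspa5 among them. The element ERSE is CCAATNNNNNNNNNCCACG, bound by ATF6 and XBP1 together with the factor NF-Y. It was searched on both strands of the 300 bases from 250 before to 50 after the start of each gene, taken from RefSeq on GRCm38.p6, where 32 of the 37 genes had an entry (not Ppp1r15b, Derl1, Atf6, Hyou1 and Manf). It was found in 9 of the 32, or 28.1%, against 0.137% of 27025 genes: 6 of 12 in the ATF6 branch, 3 of 12 in IRE1-XBP1 and 0 of 8 in PERK-ATF4. The shorter ERSE-II, ATTGGNCCACG, was in 2 of 32, Herpud1 and Dnajb11, against 0.0444% of all genes. The genes were chosen as known targets, so these shares describe the set and are no independent result, and a match is a description, not a site shown to be bound here. Each ERSE match is given 5′ to 3′ from the strand that reads CCAAT first, with the fixed bases in capitals.
Hspa5, chr2:34772025-34772043: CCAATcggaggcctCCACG
Calr, chr8:84847075-84847093: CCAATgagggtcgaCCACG
Hsp90b1 upstream match, chr10:86705638-86705656: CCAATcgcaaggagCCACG
Hsp90b1 downstream match, chr10:86705533-86705551: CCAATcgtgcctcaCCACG
Canx, chr11:50325800-50325818: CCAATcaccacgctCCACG
Pdia6, chr12:17266491-17266509: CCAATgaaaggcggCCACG
Creld2, chr15:88819520-88819538: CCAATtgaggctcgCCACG
Dnajc3, chr14:118937827-118937845: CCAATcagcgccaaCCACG
Derl3, chr10:75893242-75893260: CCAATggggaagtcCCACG
Syvn1, chr19:6046532-6046550: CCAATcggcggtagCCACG

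The promoters of the BiP and GRP94 genes show how the element sits before the start. That of Hspa5, chr2:34771840-34772139 on the plus strand of GRCm38.p6, is printed 5′ to 3′ with the element in capitals, 65 bases before the start.
Hspa5 promoter: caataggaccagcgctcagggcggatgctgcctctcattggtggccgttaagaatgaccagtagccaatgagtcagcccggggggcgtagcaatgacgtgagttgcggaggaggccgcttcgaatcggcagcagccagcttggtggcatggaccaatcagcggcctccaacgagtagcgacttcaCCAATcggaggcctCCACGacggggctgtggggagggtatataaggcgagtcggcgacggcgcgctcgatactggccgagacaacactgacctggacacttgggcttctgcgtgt
That of Hsp90b1, chr10:86705395-86705694 on the minus strand, holds a pair of elements, 212 and 107 bases before the start, and in the nearer one the capitals are the reverse complement of the element.
Hsp90b1 promoter: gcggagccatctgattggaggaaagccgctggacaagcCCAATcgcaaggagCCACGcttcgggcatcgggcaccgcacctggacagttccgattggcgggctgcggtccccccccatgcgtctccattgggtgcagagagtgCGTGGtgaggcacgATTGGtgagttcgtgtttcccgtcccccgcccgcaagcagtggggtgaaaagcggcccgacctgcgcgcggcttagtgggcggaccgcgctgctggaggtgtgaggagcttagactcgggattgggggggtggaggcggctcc

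Limma called 0 of the genes with the element, as it called 0 of all 12993 genes tested. The 9 members with ERSE had a median log2 difference of 0.03, and the other 10 tested genes with it had a median of -0.02. Of the 19, 0 had an unadjusted p under 0.05 (limma), against 2.96% of all genes. With so few genes this count does not set them apart. The extremes of those 10 were Xlr3b, with 11.4 scaled CPM in AdIGF1RKO and 4.29 in Flox (log2 difference 1.2, unadjusted p = 0.21, limma), and Acacb, an acetyl-CoA carboxylase gene, with 36.3 in AdIGF1RKO and 47.7 in Flox (-0.38, unadjusted p = 0.0703, limma). Of the ER genes among them, Ero1b, an oxidase gene, had 11.5 scaled CPM in AdIGF1RKO and 10.8 in Flox, and Alg12, a glycan transferase gene, had 9.86 in AdIGF1RKO and 9.98 in Flox. For the PERK branch the elements searched were the CRE, TGACGTCA, and a narrow form of the C/EBP-ATF element, TGATGNAAT, with its last base fixed as T. The CRE was in 1 of 32 members, Ppp1r15a, against 2.03% of all genes, and TGATGNAAT was in 0 of 32, against 1.08%. Forms with another last base were not counted, such as TGATGAAAC in the Asns window, so this count does not show that the element is absent. The XBP1 core TGACGTGG was in 0 of 32, against 0.714%. These motifs share no bases with each other in the members, and a missing match says only that these letters are not in this window.

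The other members of the ATF6 branch are the folding machinery itself. Hsp90b1 (GRP94, the ER form of HSP90) had 410, 434 and 375 scaled CPM in AdIGF1RKO, against 418, 449 and 373 in Flox. Calr and Canx, the lectin chaperones calreticulin and calnexin, had 547 to 629 and 204 to 222 scaled CPM in AdIGF1RKO, against 564 to 666 and 186 to 237 in Flox. In all 3 genes the values interleaved, with log2 differences of -0.02, -0.04 and -0.02. The disulfide isomerases Pdia3, Pdia4, Pdia6 and P4hb had log2 differences of 0.01, 0.07, -0.03 and 0.11. P4hb had 312, 334 and 286 scaled CPM in AdIGF1RKO, against 290, 290 and 281 in Flox, so that AdIGF1RKO 3 lay below Flox 1 and Flox 2.

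Hyou1, which exchanges nucleotide on BiP, had a log2 difference of 0.08. Sdf2l1, a lumenal partner of ER chaperones, had 34.1, 38.1 and 20.4 scaled CPM in AdIGF1RKO, against 28.3, 35.9 and 20.0 in Flox. Replicate 3 was the low one in both groups, and its range over the 6 libraries was 1.90-fold. Creld2, an ER protein with isomerase activity, had 40.6, 37.7 and 30.9 scaled CPM in AdIGF1RKO, against 34.6, 38.1 and 29.7 in Flox, again with replicate 3 lowest in both groups. Manf, a secreted ER stress protein, had 220 to 272 scaled CPM in AdIGF1RKO and 200 to 252 in Flox. Herpud1 and Sel1l build the HRD1 complex of ERAD: Herpud1 had 133, 110 and 108 scaled CPM in AdIGF1RKO, against 122, 117 and 138 in Flox, and Sel1l had 50.03, 55.9 and 48.5 in AdIGF1RKO, against 49.9, 51.1 and 40.5 in Flox.

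The genes of the ATF6 branch shared an order of libraries that cut across the genotypes, as the map of deviations shows. Of its 15 genes 14 lay above their mean over the 6 libraries in AdIGF1RKO 2, 11 in AdIGF1RKO 1 and 0 in AdIGF1RKO 3, against 8 in Flox 1, 12 in Flox 2 and 2 in Flox 3. The median deviations of the branch on the log2 scale were 0.06, 0.10 and -0.11 in AdIGF1RKO 1 to 3, against 0.01, 0.12 and -0.15 in Flox 1 to 3. Herpud1 and Atf6 itself did not follow this order: Herpud1 was highest in Flox 3, and Atf6 lay above its mean in Flox 3 and below it in AdIGF1RKO 1 and Flox 2. P4hb departed from it in Flox 2, at -0.04, and lay below its mean in Flox 1 and Flox 3 as well. Over all 37 genes, 21 were lowest in Flox 3, or 56.8%, where 26.2% of all tested genes were lowest in that library. AdIGF1RKO 2 was the highest library for 16 genes, or 43.2%, against 19.9% of all tested genes. The IRE1-XBP1 branch shared this order in part, with 12 of its 13 genes above their mean in AdIGF1RKO 2 and 3 of 13 in both AdIGF1RKO 3 and Flox 3. In Flox 2, however, only 7 of its 13 genes lay above their mean, with a median deviation of 0.01. In the PERK-ATF4 branch 4 of 9 genes were lowest and 3 were highest in Flox 3. The difference between the branches in this was not tested.

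**Figure D3:**
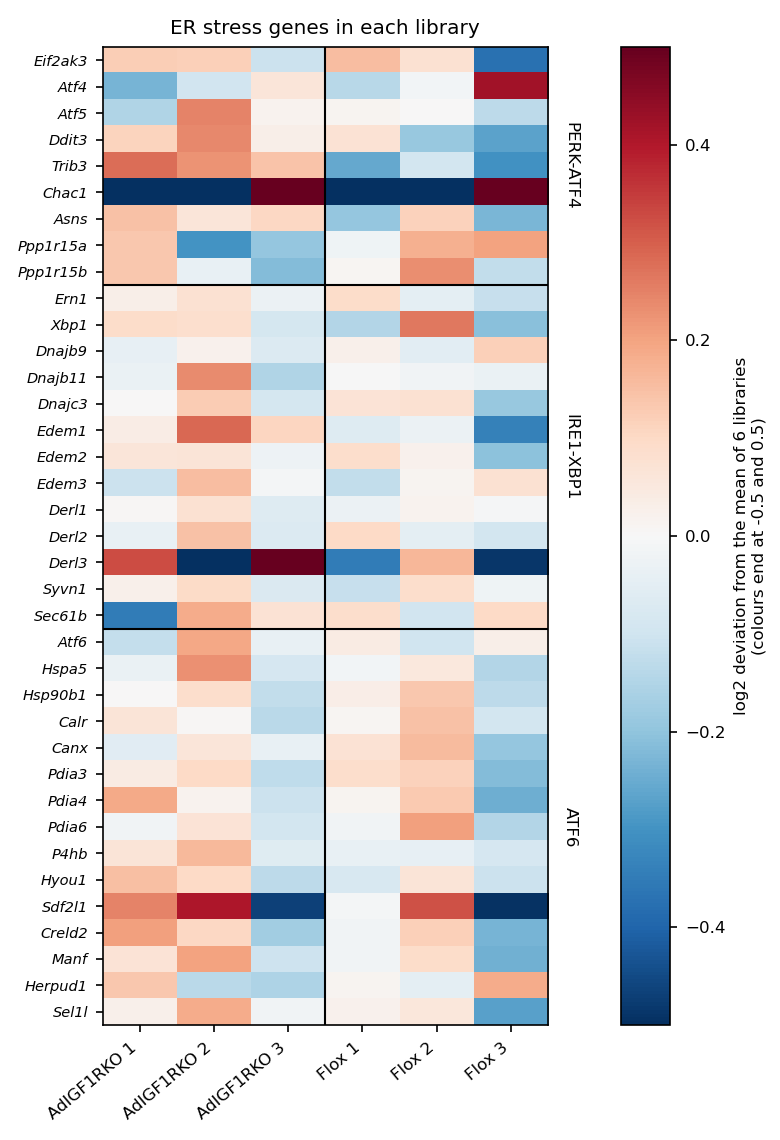
Log2 deviation of each of the 37 genes (rows, by branch) from its mean over the 6 libraries, with the AdIGF1RKO libraries on the left and the Flox libraries on the right; colours end at -0.5 and 0.5. Most ATF6 genes are below their mean in AdIGF1RKO 3 and Flox 3 (0 and 2 of 15 above it), and Atf4 and Chac1 stand out upwards in Flox 3.

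AdIGF1RKO 3 and Flox 3 are also the 2 muscle-rich libraries. Atf4 and Chac1 were highest in Flox 3 (12.2% muscle marker reads) and next highest in AdIGF1RKO 3 (4.42%), while Sdf2l1 was lowest in Flox 3 and next lowest in AdIGF1RKO 3, as was Creld2. Of the 18 muscle markers 17 had a negative log2 difference (median -1.45) and all 18 had reads in every library, so none was at 0. AdIGF1RKO 2, the library that was highest for more members than any other, also held the most RNA of lipid-laden macrophages: Trem2 had 62.8 scaled CPM there and 6.04 to 12.1 in the other 5 libraries, and the 8 markers of that list summed to 4171 to 5282 scaled CPM in AdIGF1RKO and 3888 to 4873 in Flox. Most of that sum is Lpl, which adipocytes also express. Plasma cells, which use this response for antibody secretion, gave 18 of 19 markers in the table, summing to 724 to 981 scaled CPM in AdIGF1RKO and 772 to 1076 in Flox. Of the 16 B and T cell markers 14 were in the table, summing to 17.1 to 30.4 scaled CPM in AdIGF1RKO and 14.6 to 33.8 in Flox. The epithelial markers Epcam, Krt5, Krt8 and Krt14 are not among the genes of the table. Of 10 endothelial markers 9 had a positive log2 difference (median 0.20), where 44.8% of all tested genes were positive. The 3 AdIGF1RKO values of 5 of them lay above those of Flox, against 4.41% of all genes. For Emcn the margin was 58.9 scaled CPM in AdIGF1RKO 1 against 58.8 in Flox 2. Limma called 0 of the 10, and the list sums overlapped, at 729 to 872 scaled CPM in AdIGF1RKO and 595.5 to 748 in Flox. Cytosolic heat shock genes were negative in 15 of 15 (median -0.19), with sums of 4954 to 5249 scaled CPM in AdIGF1RKO and 4932 to 7196 in Flox, the highest in Flox 3. The part of macrophage, endothelial and other cell types' RNA in the members' values was not tested. For muscle there were refits: with muscle RNA as a covariate, 22 of 37 genes had a positive log2 difference (median 0.01), and without both muscle-rich libraries 26 of 36 did (median 0.03), with Trib3 at an unadjusted p under 0.05 in each (limma).

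**Figure D4:**
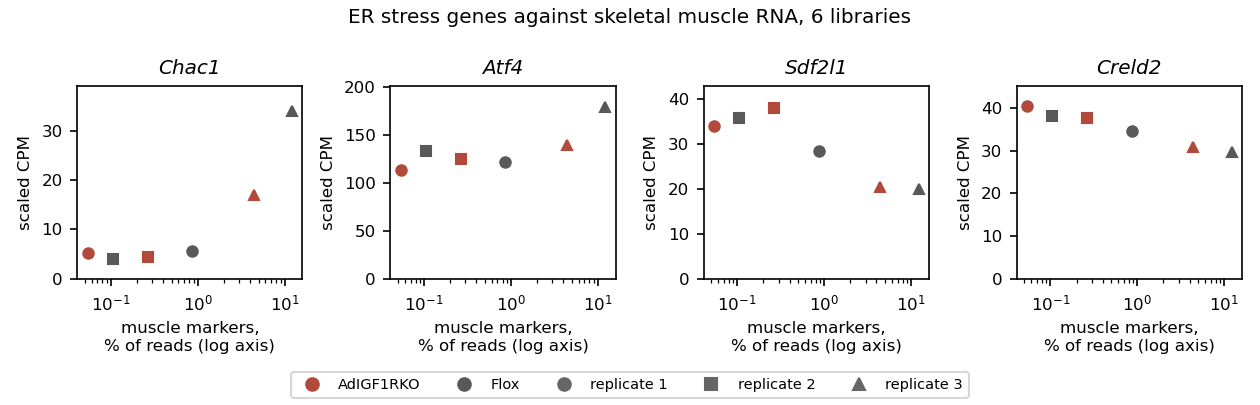
Scaled CPM (y axis, from 0) of Chac1, Atf4, Sdf2l1 and Creld2 against the share of reads from 18 skeletal muscle markers (x axis, log scale), 1 point per library, AdIGF1RKO in red and Flox in grey. The 2 libraries above 4% muscle reads, AdIGF1RKO 3 and Flox 3, are the highest for Chac1 and Atf4 and the lowest for Sdf2l1 and Creld2.

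The wider pathway, in 9 lists of other genes, gave 150 tested genes. The log2 difference was positive in 77 of these, where 44.8% of all tested genes were positive, and the median was 0.01. Limma called 0 of them, with 2 at an unadjusted p under 0.05, against 2.96% of all genes. The groups did not overlap for 5 of the 150 (3 higher and 2 lower in AdIGF1RKO), against 8.27% of all genes, so neither count stands above that of all genes. Among 22 tested genes of the ATF4 amino acid and stress list, 13 were positive. Stc2, a secreted glycoprotein that ATF4 raises, had 9.03, 11.4 and 10.4 scaled CPM in AdIGF1RKO, against 5.83, 9.56 and 5.72 in Flox. Flox 2 lay above AdIGF1RKO 1, with a log2 difference of 0.52 and its standard error 0.21 (unadjusted p = 0.0431, limma). Ddit4, an inhibitor of mTORC1, had 165 ± 18.5 scaled CPM in AdIGF1RKO and 197 ± 14.0 in Flox (SD, n = 3 each). Atf3, a stress factor, had 20.5 scaled CPM in AdIGF1RKO 2 and 5.62 to 8.22 in the other 5 libraries.

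Of the 12 tRNA synthetases tested, 7 were positive, and Cars, Wars1 and Tars had log2 differences of -0.16, 0.13 and 0.12. The 3 AdIGF1RKO values of Wars1, for tryptophan, lay above those of Flox. Of 9 genes for eIF2, its exchange factor and its kinases 3 were positive, and Eif2b3, Eif2b1 and Eif2s1 had log2 differences of 0.28, -0.32 and 0.12. Of 12 further regulators of the response 9 were positive, led by Creb3l1, Wfs1 and Creb3l2 at 0.22, 0.15 and 0.10; Bhlha15 is not among the genes of the table. These lists overlapped between the groups apart from Wars1, and none held a gene at an unadjusted p under 0.05 (limma).

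Bag6 was the other gene of the wider pathway at an unadjusted p under 0.05. It encodes a chaperone that keeps proteins soluble after they leave the ER, and it had 101, 98.0 and 98.2 scaled CPM in AdIGF1RKO, against 113, 118 and 117 in Flox. The groups did not overlap, and the log2 difference was -0.22, standard error 0.07 (unadjusted p = 0.0226, adjusted p = 0.998, limma). It was 1 of 22 ERAD genes tested, 7 of them positive, and Selenok and Marchf6, the next by p, had log2 differences of -0.19 and -0.24. Of 31 folding and disulfide genes 19 were positive: Cnpy2 had lower values in all 3 AdIGF1RKO libraries (-0.17), Dnajc1 higher values in all 3 (0.12), and Erp29 overlapped (0.19). Of 20 genes of the translocon and signal recognition 6 were positive, with Srprb, Sec63 and Ssr4 at -0.17, 0.09 and -0.13, and Sec63 was higher in all 3 AdIGF1RKO libraries. Of 13 glycan checkpoint genes 7 were positive (Mcfd2 0.16, Uggt2 -0.21, Erlec1 0.07), and of 9 ER-phagy genes 6 were (Ufm1 0.23, Calcoco1 -0.16, Atl3 0.11).

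The branch medians stayed near that of all genes under each way of processing, as the plot of branch medians shows. The scaling alone shifted the median of all tested genes to -0.17 with the values as deposited and to 0.09 with libraries scaled to equal sums, which left 5 and 34 of the 37 genes positive, so medians are given relative to that of all genes. Relative to it, the PERK-ATF4 median was 0.10, IRE1-XBP1 0.05 and ATF6 0.09. Leaving out AdIGF1RKO 2 left 16 of 37 genes positive and leaving out Flox 3 left 18, and the ATF6 median then lay at -0.01 without AdIGF1RKO 2 and at -0.04 without Flox 3. Without both muscle-rich libraries the PERK-ATF4 median was 0.01.

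**Figure D5:**
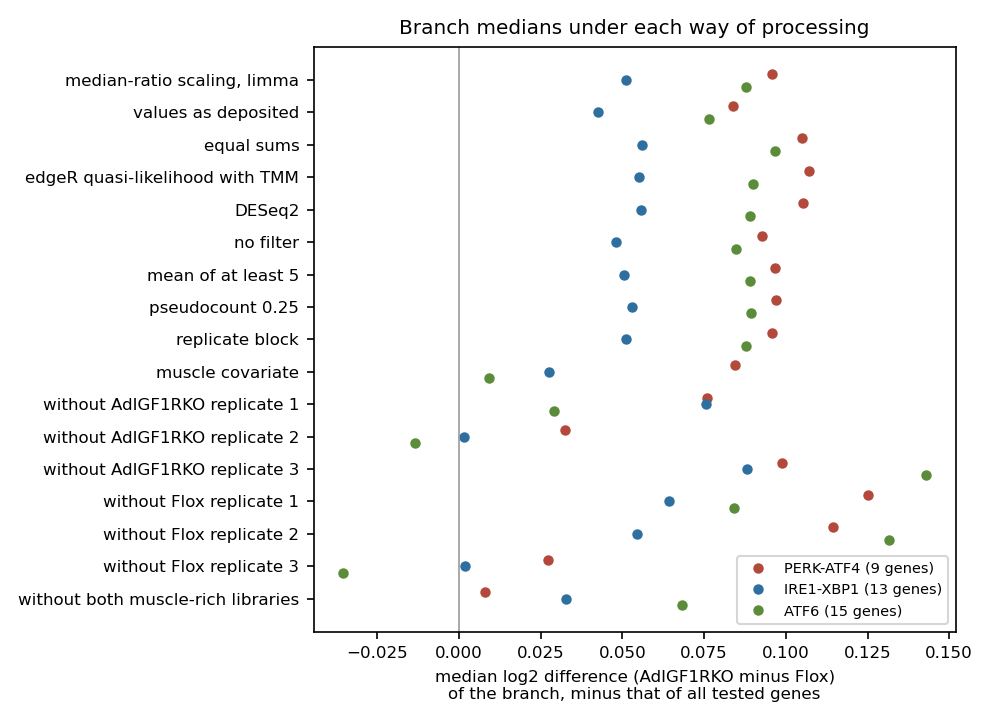
Median log2 difference of each branch (AdIGF1RKO minus Flox) minus that of all tested genes (x axis), under each way of processing (rows). All medians lie between -0.04 and 0.14, and the ATF6 branch is below 0 without AdIGF1RKO replicate 2 or Flox replicate 3.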

How the data were processed

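Stranded polyA-selected libraries of 6 mice were sequenced, per the labels' protocols. The authors deposited 1 table, with GRCm39 as the build per the submitters' processing notes. No aligner, counter or annotation is given in the sources used here. Its values are named FPKM but are a signal: the deposited values were whole reads times 1000000000 over a divisor per library, a multiple of 1000, without gene length (for 100% of values, whole reads gave back the deposited value within 0.5 of its units). Reads were recovered, divided by median-ratio size factors (0.728 to 1.16) and tested with limma 3.58.1 (R 4.3.3) on log2(scaled CPM + 1), for genes with a mean of at least 1. edgeR 4.0.16 and DESeq2 1.42.0 were run on the recovered reads. The fits were tested on simulated data.

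The titles number the mice 1 to 3 in each group. The deviations of same-numbered libraries had r = 0.347, 0.349 and 0.834. AdIGF1RKO 1 with Flox 2 reached 0.700, and AdIGF1RKO 2 with Flox 1 had 0.326, so replicates 1 and 2 show no pairing by number. Replicate 3 is the muscle-rich library of each group. A fit with the number as a block was run as an alternative, and it does not rest on a known pairing. The genes, lists and branches were chosen with earlier results of these data known. Named genes are all 37 members and, from each other list, the 3 with the smallest p. An exact permutation test of 3 against 3 cannot go below 0.1 and was not used. Old and new symbols of tRNA synthetases were merged.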

Additional observations from a re-analysis of the deposited data

How the results depend on the processing

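The count of members called stayed at 0 under all 16 alternatives. DESeq2 called 23 genes in all. Members at an unadjusted p under 0.05 numbered 1, against 0 with the values as deposited and 2 each with DESeq2, without a filter on low values and with the replicate block (Trib3 and Edem1). Leaving out 1 library gave 1 to 2 such members, 241 to 479 such genes (385 with all libraries, 244 with equal sums, 582 with the replicate block) and 0 to 1 genes called, the 1 being Aldh1a7 without Flox replicate 1. Trib3 was joined by Ppp1r15a without AdIGF1RKO replicate 1, Derl3 without AdIGF1RKO replicate 2, Ddit3 without Flox replicate 1 and Asns without Flox replicate 2. The PERK-ATF4 median, relative to that of all genes, ran from 0.027 to 0.13 over the single libraries left out and was 0.0079 without both muscle-rich libraries; the ATF6 median ran from -0.036 to 0.14. The block changed no other call.

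The sign of the log2 difference, relative to the median of all genes, turned at least once in 22 of the 37 members, none of which had differed by more than 0.30. With equal sums Hsp90b1 was 0.0051, Canx 0.0063 and Pdia6 0.0005. With the muscle covariate Chac1 was 0.19, Dnajc3 -0.0015, Sec61b 0.0089, Pdia3 -0.037 and Sdf2l1 -0.038. Without both muscle-rich libraries Chac1 was 0.0046, Dnajb9 0.0055, Dnajc3 -0.0060, Pdia3 -0.031 and Herpud1 0.020. Over the single libraries left out the ranges were -0.072 to 0.22 for Eif2ak3, -0.0039 to 0.19 for Atf5, -0.85 to 0.54 for Chac1, -0.16 to 0.035 for Ppp1r15b, -0.030 to 0.23 for Xbp1, -0.050 to 0.13 for Dnajb11, -0.061 to 0.092 for Dnajc3, -0.022 to 0.15 for Edem2, -0.021 to 0.11 for Edem3, -0.013 to 0.11 for Derl2 and -0.14 to 0.12 for Sec61b. In the ATF6 branch they were -0.042 to 0.11 for Atf6, -0.098 to 0.055 for Hsp90b1, -0.10 to 0.036 for Calr, -0.13 to 0.068 for Canx, -0.100 to 0.085 for Pdia3, -0.039 to 0.17 for Pdia4, -0.11 to 0.085 for Pdia6, -0.094 to 0.40 for Sdf2l1 and -0.0078 to 0.21 for Creld2. The cause of these turns was not tested. Derl3 was under the filter in 3 alternatives and has no value there.

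The limits are the 3 mice in each group, the mix of cell types in the pad and the lack of splicing, phosphorylation and protein data. How much of each interval comes from counting depth and how much from the spread between mice was not tested. The fewest reads were those of Derl3, at 21 to 182.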
